A study of Homo sapiens with 6 samples.

Results

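The spliceosome is the machine that removes introns from pre-mRNA, and 49 genes for its core proteins and for proteins that help it were followed here in 6 RNA-seq libraries. The 49 were taken from a list of symbols: 8 genes of the U1 small nuclear ribonucleoprotein (snRNP) and its partners, 6 Sm core genes, 9 of the U2 snRNP and 3' splice site, 12 of the U4/U6.U5 tri-snRNP, 5 of the Prp19 complex and helicases, and 9 splicing cofactors. All 49 were found among 35052 genes, and all 49 passed the filter on low counts. The libraries were made from EoL-1, an established human eosinophilic leukaemia cell line, edited with CRISPR/Cas9. Libraries 1 to 3 of one group were labelled JUN knockout and libraries 1 to 3 of the other ATF3/JUN double knockout, so by these labels every library carried the JUN knockout and the comparison was of added ATF3 loss. The treatment text given for all 6 libraries names an ATF3 knockout alone, so the genotypes used here rest on the genotype labels and titles. No unedited cells were among the samples analysed. Both factors are basic leucine zipper proteins that bind DNA as dimers. The file names gave each library its own clone code, and libraries with the same number in the 2 groups shared the code of the JUN knockout clone. Nothing in the labels states that libraries of a group were grown separately, so p-values reflect the spread among these libraries alone, and how much of it lies between clones was not tested.

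The U1 snRNP pairs with the 5' splice site, U2AF and the U2 snRNP bind the 3' splice site and the branch point, and the U4/U6.U5 tri-snRNP then joins them. After U1 and U4 leave, the Prp19 complex and a series of RNA helicases drive the catalytic steps and take the machine apart. The Sm proteins form a ring around the U1, U2, U4 and U5 RNAs, and cofactors such as the SR-related proteins decide how strongly a site is used. Mutations in SF3B1, U2AF1, PRPF8 and LUC7L2 occur in myeloid neoplasms.

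The libraries held 26146998 to 29567970 estimated reads. ATF3 mRNA was at 20.2, 13.7 and 8.89 CPM (reads of a gene for a standard library size) in JUN knockout libraries 1 to 3 and at 13.1, 10.0 and 7.63 CPM in double knockout libraries 1 to 3. It was lower in each same-numbered pair, but the groups overlapped (log2 fold change −0.48, SE 0.32, and −0.14 without JUN knockout library 1). JUN mRNA was at 13.2 to 27.2 CPM in the JUN knockout and 13.8 to 25.7 CPM in the double knockout. Both mRNAs were thus present in every library, and these levels do not settle the genotype labels. The labels name the cells eosinophils. Of 9 eosinophil markers, 2 (RNASE2 and RNASE3) averaged over 1 TPM (abundance scaled for transcript length and library total), and EPX, PRG3, CLC and IL5RA were listed at 0 in every library. The summed marker levels were 70.4 to 194 TPM in the JUN knockout and 120.4 to 186 TPM in the double knockout. Monocyte markers summed to 117 to 288 and 135 to 312 TPM, mostly LYZ, and neutrophil precursor markers to 26.7 to 43.0 and 31.7 to 87.2 TPM. B cell markers summed to 2.45 to 8.61 and 3.77 to 8.51 TPM. Marker sums of T cells, erythroid cells, fibroblasts and mast cells stayed at or below 1.08 TPM in every library. The part of these cell types in the results was not tested.

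Most of the 49 genes had lower mean levels in the double knockout than in the JUN knockout, by small amounts. The log2 fold change (double knockout minus JUN knockout, from edgeR's quasi-likelihood fit over all genes) was below 0 for 42 of 49 and above 0 for 7, where 49.3% of the 12954 tested genes were below 0. Its median was −0.15 over the 49 and 0.0032 over all tested genes. This contrast was known when the genes were chosen, so these values describe the list and do not test it. None of the 49 passed the adjusted threshold of 0.05, and neither did any of the 12954 genes (edgeR called 0%, listed 753 or 5.81% at an unadjusted p under 0.05, while limma-voom called 4 and DESeq2 called 71). DESeq2 called 5 of the 49, all lower (PRPF3, PRPF39, RBM39, CLASRP and LUC7L), where it called 0.548% of all genes, and limma-voom called none of the 49, where it called 0.0309%.

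At an unadjusted p under 0.05, edgeR listed 9 of the 49, all lower, where 2.89% of all genes were listed as lower. They were PRPF3, PRPF39, CLASRP, LUC7L, PRPF38B, U2AF1, RBM39, SART1 and SNRNP200. This count was 17 without JUN knockout library 1 and 6 without any 1 of JUN knockout libraries 2 and 3 or double knockout libraries 1 and 2. How many of all genes were listed in those fits is not given here, so these counts do not set the 49 apart from other genes. In 9 of the 49 every double knockout library lay below every JUN knockout library, where 5.91% of all genes did so. These were the same names with RBM10 in place of U2AF1. In 0 of the 49 did every double knockout library lie above, where 6.33% of all genes did. Within same-numbered pairs, 20 of the 49 were lower in all 3 (15.2% of all genes) and 2, LUC7L2 and SON, were higher in all 3 (18.1% of all genes). The medians over the 49 were −0.016, −0.20 and −0.15 in pairs 1, 2 and 3, with 26, 39 and 45 genes lower. Without JUN knockout library 3 the median over the 49 was −0.072. In bulk RNA, fewer cells with a transcript and less of it per cell cannot be told apart.

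**Figure D1:**
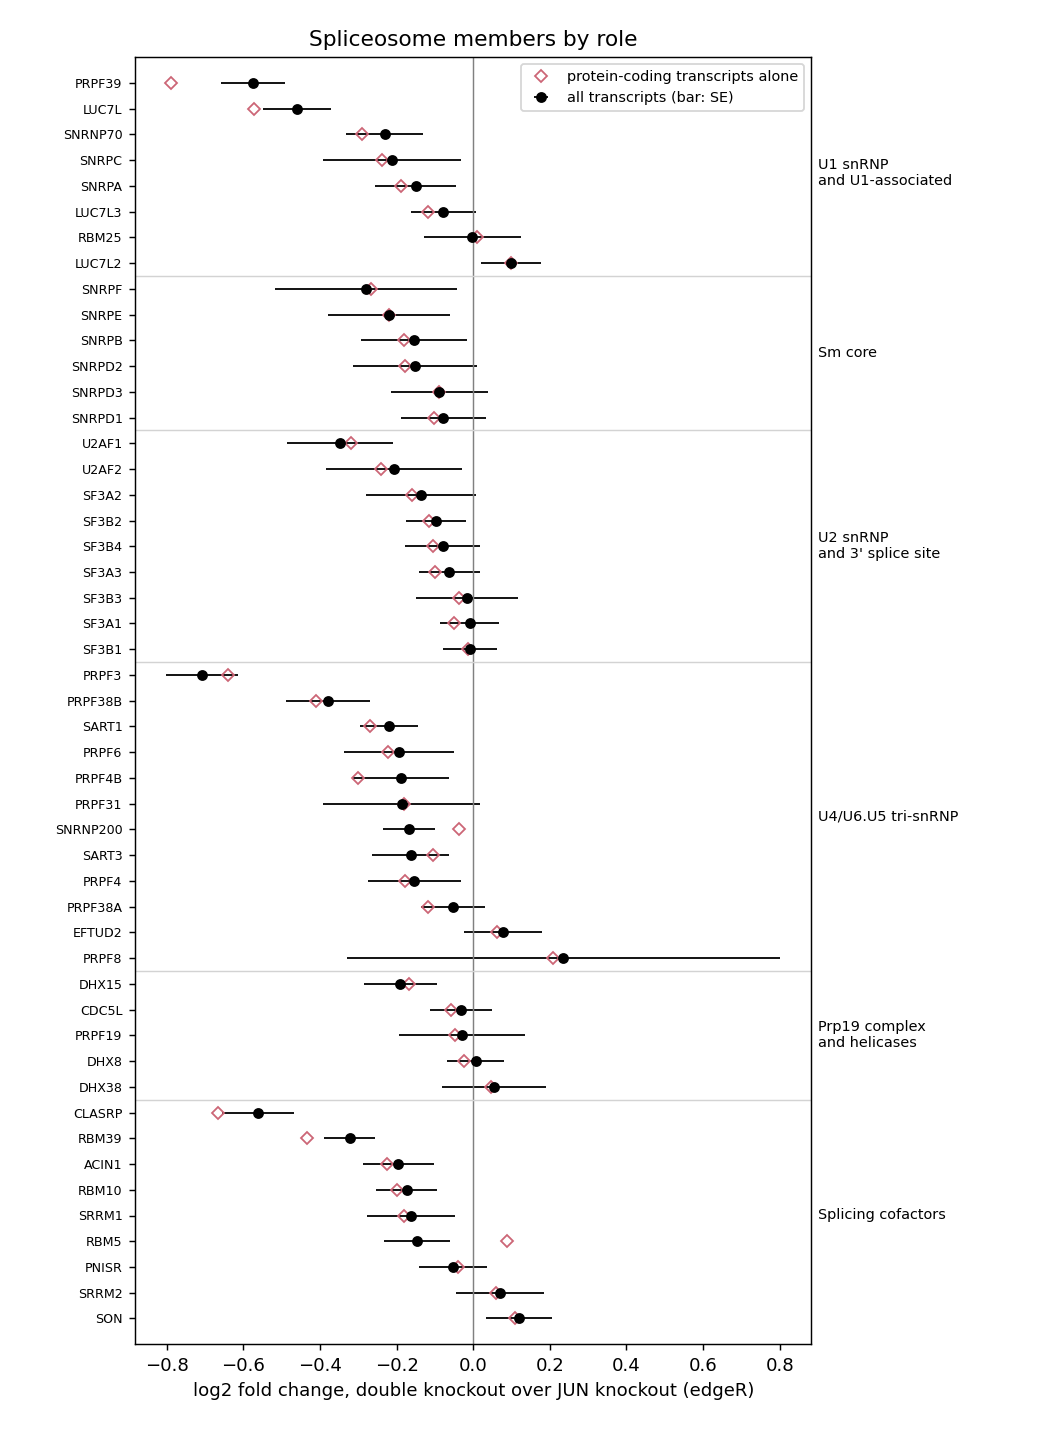
Log2 fold change of each of the 49 genes (x axis, double knockout over JUN knockout, n = 3 libraries each), grouped by role on the y axis. Black points with SE bars are sums over all transcripts and open diamonds are protein-coding transcripts alone; 42 black points lie left of 0, with PRPF3, PRPF39, CLASRP and LUC7L the farthest left, and PRPF8 has by far the longest bar.

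The levels themselves differed far more between roles than between knockouts. TPM values here sum all transcripts of a gene, coding or not. Per length, the median level was 295 TPM in the Sm core, 144 TPM in the U1 group, 142 TPM among the cofactors, 113 TPM in the U2 group, 42.7 TPM in the tri-snRNP and 24.2 TPM in the Prp19 and helicase group. The highest was SNRPD2 (535 TPM) and the lowest DHX8, a helicase that releases spliced mRNA (21.2 TPM). The ranges overlapped between roles: SNRPF, an Sm gene, was at 70.0 TPM and DHX15, a helicase, at 185 TPM. Across the 6 libraries the highest CPM of a gene was 1.32 times its lowest in the median of the 49 and 1.41 times in the median of all tested genes. SF3B1, the branch-point protein, moved least (1.08 times), and PRPF8 moved most (3.54 times).

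In the U1 group, PRPF39 and LUC7L were lower in the double knockout, while LUC7L2 had a slightly higher mean with overlapping groups. PRPF39 (ENSG00000185246, chr14:45084099-45116282, plus strand, GRCh38), a U1 partner that helps define the 5' splice site, was at 108, 103.5 and 106 CPM in JUN knockout libraries 1 to 3 and at 70.5, 65.9 and 76.9 CPM in double knockout libraries 1 to 3. The means were 105.9 ± 2.20 and 71.1 ± 5.56 CPM (SD, n = 3 each), and the groups were far apart relative to their spread. The log2 fold change was −0.57 (SE 0.084) over all transcripts and −0.79 (SE 0.098) over protein-coding transcripts.

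LUC7L (ENSG00000007392, chr16:188969-229463, minus strand), a U1-associated zinc finger protein, was at 90.4, 79.1 and 80.1 CPM in the JUN knockout and at 58.8, 58.3 and 64.3 CPM in the double knockout. No double knockout library reached the lowest JUN knockout library. The log2 fold change was −0.46 (SE 0.089), and −0.57 (SE 0.15) over protein-coding transcripts. Its relatives lay near 0. LUC7L2 went from 238 ± 14.4 to 254 ± 7.65 CPM (log2 fold change 0.098, SE 0.079), and LUC7L3 from 248 ± 11.3 to 235 ± 17.2 CPM (−0.078, SE 0.086), and in both the groups overlapped. LUC7L2 and LUC7L3 were chosen for this comparison after their values were seen, and the difference between the 3 genes was not tested.

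The promoters of the paralogs LUC7L and LUC7L2 are shown, a pair picked after their values were seen. LUC7L separated the groups and LUC7L2 did not (log2 fold change 0.098, SE 0.079), so an opposite direction is not established. A link between these bases and the levels was not tested. Each line gives the 250 bases before the RefSeq start site (GRCh38.p14), read along the gene's own strand, with matches to the motifs described further on in capitals. That of LUC7L is chr16:229450-229699 on the minus strand and that of LUC7L2 is chr7:139340222-139340471 on the plus strand.
LUC7L: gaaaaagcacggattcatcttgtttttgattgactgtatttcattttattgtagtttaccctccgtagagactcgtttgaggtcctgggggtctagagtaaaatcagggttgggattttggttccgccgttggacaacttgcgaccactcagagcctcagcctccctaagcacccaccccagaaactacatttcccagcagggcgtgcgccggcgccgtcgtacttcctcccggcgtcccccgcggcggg
LUC7L2: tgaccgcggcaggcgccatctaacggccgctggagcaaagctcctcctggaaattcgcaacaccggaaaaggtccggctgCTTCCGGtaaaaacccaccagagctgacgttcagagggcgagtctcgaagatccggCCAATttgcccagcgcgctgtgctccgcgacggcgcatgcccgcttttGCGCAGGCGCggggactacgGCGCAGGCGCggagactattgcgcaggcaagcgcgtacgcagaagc
In LUC7L2 the capitals mark 1 ETS match, 1 CCAAT box and 2 NRF1 matches, which begin 170, 114, 66 and 46 bases before the start site. None of the searched motifs was found in the LUC7L window.

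The other U1 genes lay closer to 0. SNRNP70 (ENSG00000104852, chr19:49085419-49108605, plus strand), the U1-70K protein and the most abundant of the group at 258 TPM, was at 405, 465 and 471 CPM in the JUN knockout and at 359, 364 and 419.6 CPM in the double knockout. The highest double knockout library lay above the lowest JUN knockout library (log2 fold change −0.23, SE 0.10). Transcripts not annotated as protein-coding held 65.9% of its reads. Its protein-coding transcripts were at 96.1, 180 and 190 CPM and at 120, 119 and 149 CPM, with the lowest value in JUN knockout library 1. SNRPC, SNRPA and RBM25 had log2 fold changes of −0.21, −0.15 and −0.002, each with overlapping groups.

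All 6 Sm genes had a mean below that of the JUN knockout, with a median log2 fold change of −0.15 and a range of −0.28 to −0.077, yet none separated the groups. SNRPB, SNRPD3 and SNRPD1 were at −0.15, −0.088 and −0.077. SNRPD2 (ENSG00000125743, chr19:45687454-45692569, minus strand) was at 200.2, 267 and 289 CPM in the JUN knockout and at 216.5, 201 and 262 CPM in the double knockout (log2 fold change −0.15, SE 0.16). SNRPF (ENSG00000139343, chr12:95858928-95903828, plus strand), with the largest difference, was at 63.2, 103 and 119.6 CPM and at 72.1, 69.5 and 93.3 CPM (−0.28, SE 0.24). SNRPE (ENSG00000182004, chr1:203861603-203870550, plus strand) was at 88.8, 117 and 130.2 CPM and at 91.8, 87.4 and 109.7 CPM (−0.22, SE 0.16). In each of these JUN knockout library 1 lay within or below the range of the double knockout.

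The low JUN knockout library 1 was shared by the 6 Sm genes followed here, and by many of the 49. Library 1 was the lowest and library 3 the highest of the JUN knockout for 6 of 6 genes. Over the 49, library 1 was the lowest of the JUN knockout for 35 and library 3 the highest for 32. Library 1 was the lowest JUN knockout library for 41.7% of all tested genes. The share of all genes with library 3 highest is not given here. The summed level of the 6 genes was 849.8, 1114 and 1206 CPM in the JUN knockout and 931, 870.1 and 1057 CPM in the double knockout. In pair 1 all 6 genes were higher in the double knockout, and in pairs 2 and 3 all 6 were lower, with pair medians of 0.13, −0.41 and −0.21. The direction for the Sm genes therefore rested on which libraries were compared. SNRPE stood apart in one more way: 83.9% of its reads lay on transcripts not annotated as protein-coding, nearly all on SNRPE-205, a processed transcript of 532 bases that held 80.3% of the reads of the gene.

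**Figure D2:**
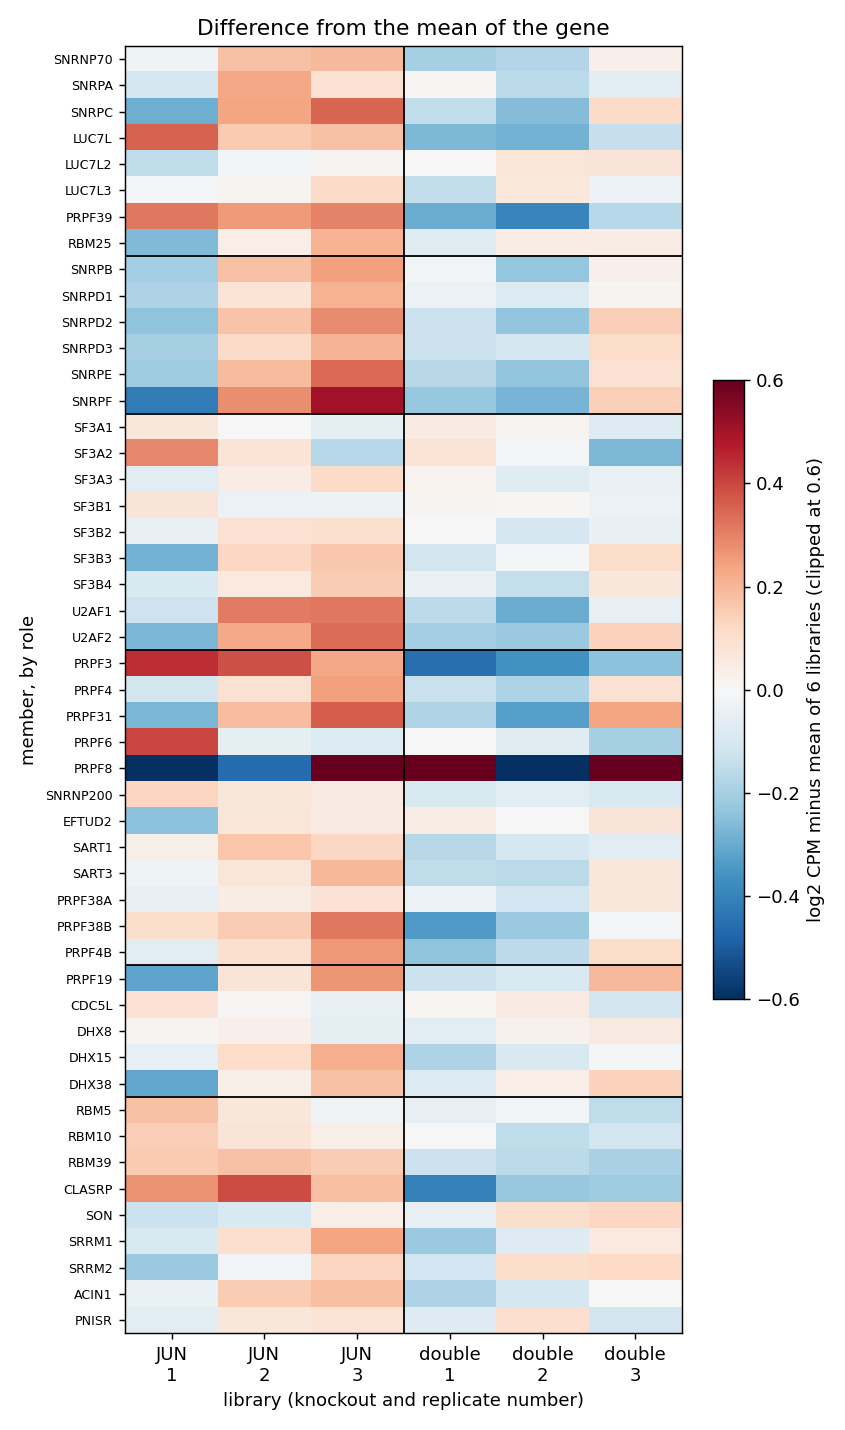
Log2 CPM of each of the 49 genes (rows, in role order separated by black lines) in each library (columns) minus the mean of that gene over 6 libraries; red is above and blue below the mean, with colour clipped at 0.6. JUN knockout library 1 is blue through the Sm rows, while PRPF39, LUC7L, PRPF3, CLASRP and RBM39 are red in every JUN knockout library and blue in every double knockout library.

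The U2 and 3' splice site genes had 9 of 9 log2 fold changes below 0, with a median of −0.080, and most lay within their SE of 0. SF3B1, SF3A1 and SF3B3 were at −0.008, −0.008 and −0.016, and no gene of the group separated the libraries by knockout. SF3B3 (ENSG00000189091, chr16:70523788-70577670, plus strand), a scaffold of the SF3b complex, had the highest TPM of the group over all transcripts (283 TPM). It was at 310.1, 412 and 422 CPM in the JUN knockout and at 349, 375 and 407 CPM in the double knockout. Transcripts not annotated as protein-coding held 35.6% of its reads. Its protein-coding transcripts averaged 244 and 242 CPM in the JUN and double knockout, below those of U2AF2 (540.5 and 466 CPM) and SF3B1 (467 and 471 CPM). SF3A2, SF3B2, SF3B4 and SF3A3, all proteins of the U2 particle, were at −0.14, −0.097, −0.080 and −0.062. U2AF2, the large U2AF subunit that reads the polypyrimidine tract, had −0.21 (SE 0.18), with 423 to 645 CPM in the JUN knockout and 438 to 563 CPM in the double knockout.

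U2AF1 (ENSG00000160201, chr21:43092956-43107587, minus strand), the small subunit that reads the AG of the 3' splice site, had the largest difference of the group. It was at 95.5, 129 and 129.6 CPM in the JUN knockout and at 93.2, 84.6 and 100.7 CPM in the double knockout (−0.35, SE 0.14), so 1 double knockout library lay above the lowest JUN knockout library. A near-identical copy (ENSG00000275895) is annotated at chr21:6484623-6499261, and reads may have been split between them, which makes either value uncertain by itself. Summed over both, the level was 155, 186 and 198 CPM in the JUN knockout and 132, 132 and 151 CPM in the double knockout, a log2 ratio of means of −0.38, and on this sum the groups did not overlap.

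In the tri-snRNP, 10 of 12 log2 fold changes were below 0, with a median of −0.18. PRPF3 (ENSG00000117360, chr1:150321476-150353195, plus strand), a U4/U6 protein needed for the tri-snRNP to form, had the largest difference of the 49. It was at 87.5, 84.1 and 75.7 CPM in the JUN knockout and at 47.0, 50.1 and 54.3 CPM in the double knockout. The log2 fold change was −0.71 (SE 0.094), and −0.64 (SE 0.097) over protein-coding transcripts. The groups lay well apart, and the value stayed between −0.76 and −0.66 with any 1 library left out.

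PRPF38B, SART1 and SNRNP200 also separated the groups, and are named after their values were seen. PRPF38B, a paralog of the B complex protein PRPF38A, was at 182, 188 and 211 CPM in the JUN knockout and at 134, 145 and 168 CPM in the double knockout (−0.38, SE 0.11). PRPF38A itself was at −0.052 (SE 0.083). SART1, which helps the tri-snRNP form, went from 114 ± 5.22 to 98.0 ± 3.51 CPM (−0.22, SE 0.076). SNRNP200, the helicase that unwinds U4 from U6, went from 329.7 ± 9.62 to 294 ± 2.60 CPM (−0.17, SE 0.069), but its protein-coding transcripts had −0.038 (SE 0.096). The U4/U6 proteins PRPF31 and PRPF4, the U5 protein PRPF6, the recycling factor SART3 and the kinase PRPF4B lay between −0.19 and −0.15, and in each the groups overlapped. PRPF6 was at 164 CPM in JUN knockout library 1 and at 108.5 to 124.6 CPM in the other 5.

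EFTUD2 (ENSG00000108883, chr17:44849943-44899662, minus strand), the GTPase of the U5 snRNP and the most abundant of the group at 88.5 TPM, was at 138.5, 173 and 170.2 CPM in the JUN knockout and at 169.6, 165 and 174 CPM in the double knockout (0.077, SE 0.10). Its groups overlapped, and without JUN knockout library 1 the value was −0.018. PRPF8 (ENSG00000174231, chr17:1650629-1684882, minus strand), the scaffold of the catalytic centre, was at 64.1, 86.8 and 227 CPM in the JUN knockout and at 186, 64.1 and 194 CPM in the double knockout (0.24, SE 0.57). Its high and low libraries fell across both groups. Some transcripts in the files had no match in the annotation and can include alternative copies of a gene, and their part in the PRPF8 values was not tested, so these are uncertain.

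**Figure D3:**
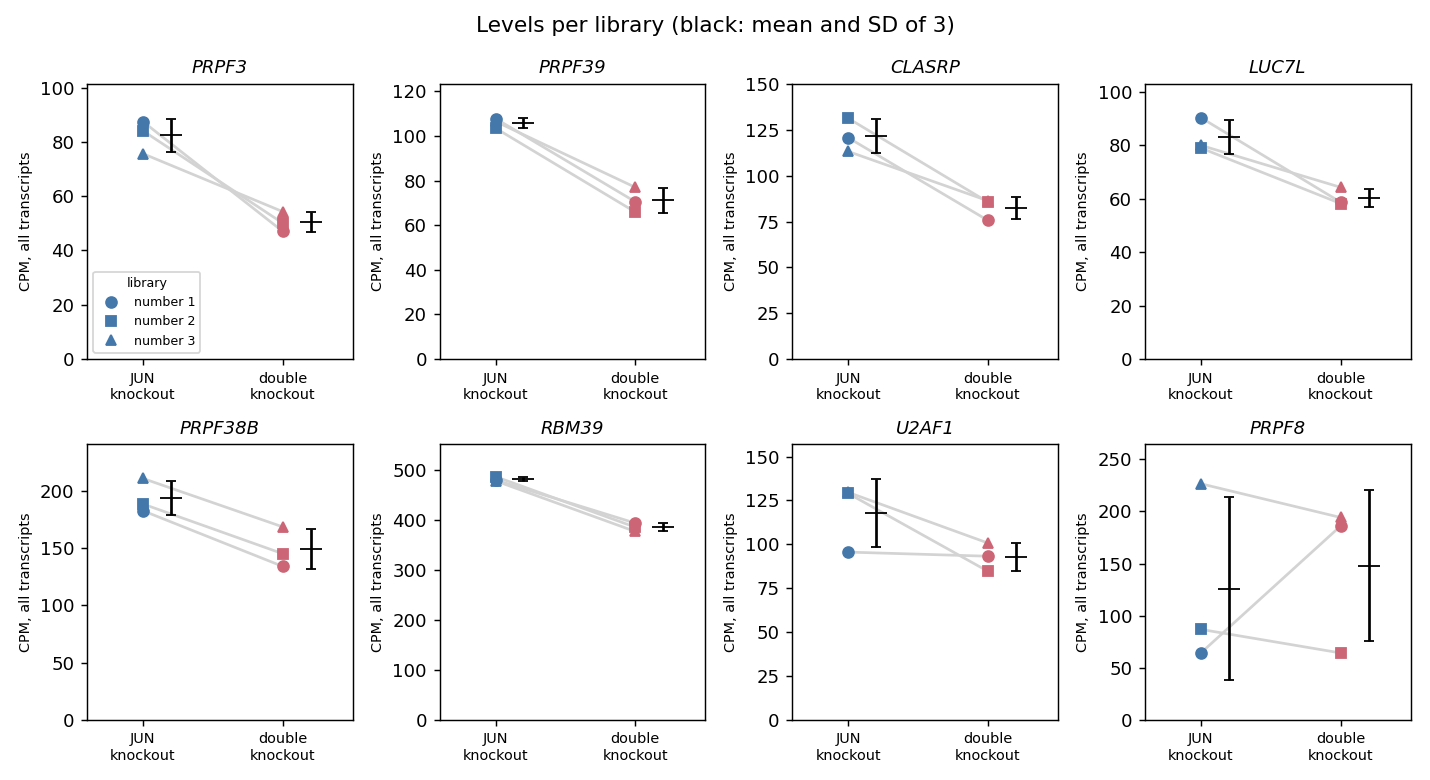
CPM over all transcripts (y axis, from 0) of 8 genes in JUN knockout (blue) and double knockout (red) libraries, with marker shape for the library number, grey lines joining same numbers, and black bars for the mean and SD of 3. The 2 groups are apart for PRPF3, PRPF39, CLASRP, LUC7L, PRPF38B and RBM39, overlap for U2AF1, and are mixed for PRPF8 at 64.1 to 227 CPM.

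The Prp19 and helicase group had the median closest to 0 of the 6 roles, −0.029, with 3 of 5 genes below 0. DHX15 (ENSG00000109606, chr4:24517441-24584550, minus strand), the helicase that disassembles the spliceosome, was the most abundant (185 TPM) and had the largest difference. It was at 473, 528 and 569 CPM in the JUN knockout and at 431, 459.7 and 486 CPM in the double knockout (−0.19, SE 0.095), and 1 double knockout library lay above the lowest JUN knockout library. PRPF19, the ubiquitin ligase that names the complex, its partner CDC5L and the helicases DHX8 and DHX38 lay between −0.031 and 0.055, each within its SE of 0.

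Among the 9 cofactors, 7 were below 0 and the median was −0.16. CLASRP (ENSG00000104859, chr19:45039040-45070956, plus strand), an SR-like protein that binds the splicing kinase CLK4, was at 121, 131 and 113 CPM in the JUN knockout and at 75.6, 85.6 and 86.3 CPM in the double knockout (−0.56, SE 0.094). Its protein-coding transcripts gave −0.67 (SE 0.075), with 58.0 to 61.9 CPM in the JUN knockout and 38.4 to 38.8 CPM in the double knockout. Within each knockout the coding values thus lay within a few CPM of each other, and the groups were far apart.

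RBM39 (ENSG00000131051, chr20:35701347-35742312, minus strand), a U2AF-related protein that anticancer sulfonamides send for degradation, was at 481, 487 and 479 CPM in the JUN knockout and at 394, 386 and 377 CPM in the double knockout. The means were 482 ± 4.49 and 386 ± 8.38 CPM (SD, n = 3 each), and the log2 fold change was −0.32 (SE 0.066), the smallest SE of the 49. RBM10, an RNA-binding relative of RBM5 that was named after its values were seen, also separated the groups, at 96.9 ± 3.66 and 85.9 ± 4.92 CPM (−0.17, SE 0.079). SON and SRRM2, large proteins of nuclear speckles, were above 0 at 0.12 (SE 0.086) and 0.070 (SE 0.11), and ACIN1, SRRM1 and PNISR were at −0.20, −0.16 and −0.054.

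Reads were next divided by transcript class, since a spliceosome gene can lose coding mRNA, intron-retaining RNA, or both. The 49 genes had 563 annotated transcripts: 203 protein-coding, 188 retained-intron, 75 targets of nonsense-mediated decay (the pathway that destroys mRNA with an early stop codon) and 97 other processed transcripts. The share of reads of the 49 on transcripts not annotated as protein-coding was 22.8%, 22.0% and 20.7% in the JUN knockout and 20.1%, 21.0% and 20.2% in the double knockout, a difference of −1.42 points with overlapping groups. For retained-intron transcripts alone the shares were 12.3%, 11.7% and 10.7% against 10.5%, 10.8% and 10.3%. Over all protein-coding genes but the 49, the retained-intron share was 5.58% to 5.79% in the JUN knockout and 4.69% to 5.12% in the double knockout, without overlap. The spliceosome genes thus had a larger part of their reads on such transcripts than other genes in every library, and the mean share was lower in the double knockout for both.

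Counted gene by gene, 32 of the 49 had retained-intron transcripts averaging over 1 CPM, and 29 of these 32 were lower in the double knockout, where 77.9% of all 3857 such genes were lower. In 10 of the 32 the groups did not overlap, where 22.4% of all such genes were lower without overlap, and in 0 of the 32 were they higher without overlap, where 1.81% of all such genes were. The 10 were SNRNP70, LUC7L, LUC7L3, PRPF39, U2AF1, SNRNP200, DHX15, RBM5, RBM39 and CLASRP. The median log2 ratio of means was −0.30 over the 32 and −0.25 over all 3857. The lower level of retained-intron transcripts was thus near that of genes in general.

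The same counts were made for protein-coding transcripts. Of the 49, 39 had a lower coding mean in the double knockout, where 43.8% of all 10697 such genes did, and the median ratio was −0.13 against 0.026. In 8 of the 49 the coding groups did not overlap and were lower, where 4.17% of all genes were: PRPF39, CLASRP, PRPF3, LUC7L, RBM39, PRPF38B, SART1 and RBM10. In 0 of the 49 were they higher without overlap, where 7.6% of all genes were. The edgeR fit on protein-coding transcripts alone put 41 of the 49 below 0, where 50.6% of all genes lay below 0, with a median of −0.16, which was −0.084 without JUN knockout library 3. That fit called 0 of 11558 genes (0%), and limma-voom called 6 and DESeq2 52. It listed 9 of the 49 at an unadjusted p under 0.05, the 8 just named and ACIN1, all lower, where it listed 577 genes or 4.99% in either direction and 2.54% as lower. Without JUN knockout library 1 this count was 21 of the 49, but the share of all genes listed in that fit is not given here. Nonsense-mediated decay transcripts over 1 CPM were found in 22 of the 49, and 13 of these were lower, where 50.6% of all 2395 such genes were. In 3 of the 22 (SNRNP70, SART3 and CLASRP) the groups did not overlap and were lower, where 6.89% of all such genes were, and U2AF2 was higher without overlap, where 5.72% were. SART3 had few such reads, at 3.56, 2.28 and 11.6 CPM in the JUN knockout and 0.999, 1.26 and 0.68 CPM in the double knockout.

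The edgeR fit on transcripts not annotated as protein-coding was scaled on those transcripts themselves, so a drop they all share is removed from it. It called 0 of 7725 genes (0%), where DESeq2 called 83 and limma-voom 0, and it listed 640 genes or 8.28% at an unadjusted p under 0.05, with 4.84% listed as lower. Of the 41 spliceosome genes it tested, 28 were below 0, where 51.1% of all genes were, and 6 were listed, all lower: PRPF3, SART3, U2AF1, CLASRP, RBM5 and DHX15. The 6 became 2 without JUN knockout library 2 and 3 without double knockout library 1, fits whose share over all genes is not given here. PRPF3 had a log2 fold change of −0.86 (SE 0.15) in this fit and RBM5 −0.37 (SE 0.11). SART3 had few reads on these transcripts, with means of 8.3 and 3.2 CPM in the JUN and double knockout.

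RBM5 and PRPF39 had the gene-level value that moved most between the 2 counts, in opposite directions. RBM5 (ENSG00000003756, chr3:50088908-50119021, plus strand), an RNA-binding regulator of exon choice, was at 192, 178 and 168 CPM in the JUN knockout and at 164, 168 and 153 CPM in the double knockout over all transcripts (−0.15, SE 0.085). Its protein-coding transcripts were at 102, 89.2 and 85.2 CPM and at 98.1, 106 and 95.2 CPM, with overlap (0.088, SE 0.10). Its retained-intron transcripts were at 88.0, 87.3 and 79.8 CPM and at 64.5, 60.9 and 55.6 CPM, without overlap (log2 ratio of means −0.49). In PRPF39 both classes were lower: protein-coding transcripts at 72.8, 63.3 and 66.7 CPM and at 38.3, 37.9 and 43.2 CPM (−0.76), and retained-intron transcripts at 30, 36.8 and 33.9 CPM and at 24.8, 22.6 and 26.7 CPM (−0.44).

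SNRNP200 was like RBM5. Its retained-intron transcripts, 197, 198 and 192 CPM in the JUN knockout and 166, 151 and 166 CPM in the double knockout, held nearly the whole of the gene-level difference, while its protein-coding transcripts were at 140, 123 and 127 CPM and at 123, 141 and 124 CPM. LUC7L, CLASRP and RBM39 were like PRPF39, lower in both classes, with log2 ratios of −0.55, −0.64 and −0.41 for protein-coding and −0.62, −0.68 and −0.38 for retained-intron transcripts. PRPF3 has no retained-intron transcript over 1 CPM, and its other non-coding transcripts were at 26.5, 22.0 and 21.4 CPM in the JUN knockout and 10.8, 12.2 and 12.6 CPM in the double knockout (−0.97). Salmon shares out reads that fit several transcripts of a gene, so a class value is less certain than a gene sum.

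**Figure D4:**
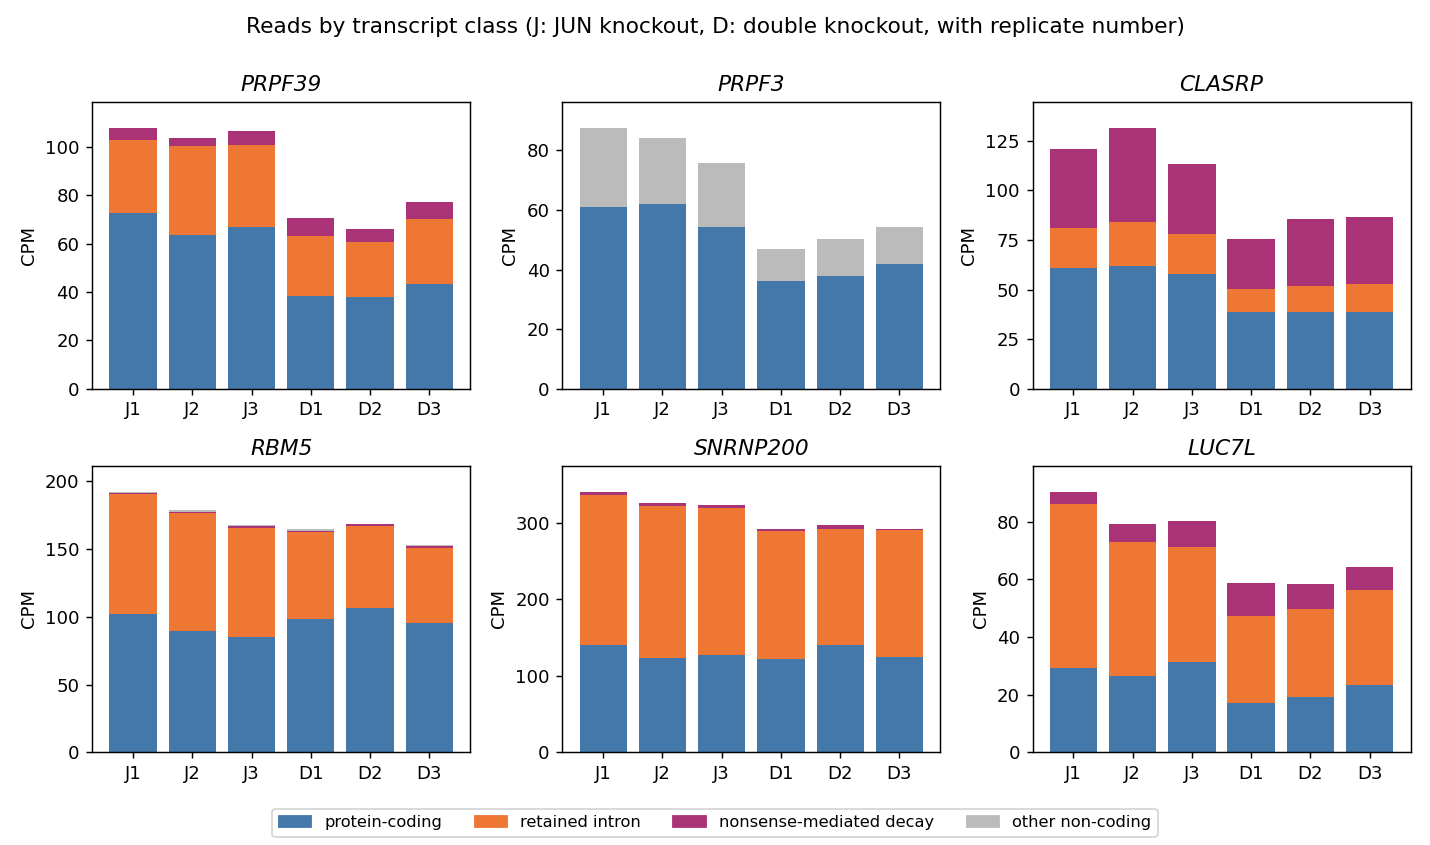
CPM by annotated transcript class (stacked bars, y axis from 0) in each library of 6 genes, with J1 to J3 the JUN knockout and D1 to D3 the double knockout. The protein-coding part is shorter in every double knockout bar of PRPF39, PRPF3, CLASRP and LUC7L, while in RBM5 and SNRNP200 the retained-intron part is shorter and the coding parts overlap.

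In 6 genes, exon positions of the most abundant retained-intron transcript were compared with those of a coding transcript. In RBM5, PRPF39 and RBM39 the retained-intron transcript kept 1 whole intron of the coding one. In SNRNP200, LUC7L and SNRNP70 it kept 0 whole introns of the coding transcript used, so for these genes the class name is the annotation's and no intron can be given. The junctions of RBM5, PRPF39 and RBM39 are shown because each tells 1 intron-keeping transcript, described next, from the coding transcript. These transcripts are part of their class: RBM5-212 held 24.1% of the reads of its gene, PRPF39-203 22.9% and RBM39-223 20.4%. Each set gives the spliced junction of the coding transcript and the 5' and 3' edges of the retained intron, with 25 bases on each side, from GENCODE 29 on GRCh38 along the transcript, and capitals mark the first and last pair of intron bases. All 3 introns lie between coding exons. That of RBM5 is intron 6 of 24 of RBM5-201 (chr3:50100606-50103082, plus strand, 2477 bases), that of PRPF39 is intron 3 of 13 of PRPF39-201 (chr14:45096229-45096886, plus strand, 658 bases), and that of RBM39 is intron 2 of 16 of RBM39-203 (chr20:35739018-35740823, minus strand, 1806 bases).
RBM5 spliced: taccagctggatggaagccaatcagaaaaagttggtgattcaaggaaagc
RBM5 intron 5' edge: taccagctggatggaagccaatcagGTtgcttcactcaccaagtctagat
RBM5 intron 3' edge: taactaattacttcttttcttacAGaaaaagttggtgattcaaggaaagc
PRPF39 spliced: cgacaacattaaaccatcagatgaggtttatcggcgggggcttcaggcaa
PRPF39 intron 5' edge: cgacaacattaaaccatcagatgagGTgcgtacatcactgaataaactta
PRPF39 intron 3' edge: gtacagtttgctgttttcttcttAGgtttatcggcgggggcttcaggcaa
RBM39 spliced: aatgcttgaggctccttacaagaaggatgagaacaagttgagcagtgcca
RBM39 intron 5' edge: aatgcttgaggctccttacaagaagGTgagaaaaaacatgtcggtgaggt
RBM39 intron 3' edge: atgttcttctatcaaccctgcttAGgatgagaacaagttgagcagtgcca

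RBM5-212, which keeps the RBM5 intron shown, was at 47.5, 51.3 and 41.4 CPM in the JUN knockout and at 43.1, 34.5 and 29.03 CPM in the double knockout, while RBM5-201, which splices it, was at 73.6, 62.8 and 64.2 CPM and at 74.4, 80.2 and 76.8 CPM. The spliced form was thus higher, narrowly, in every double knockout library than in any JUN knockout library, and the intron-keeping form overlapped. PRPF39-203 was at 20.4, 23.9 and 21.6 CPM and at 19.4, 17.5 and 18.9 CPM, without overlap, against 72.5, 63.3 and 66.7 CPM and 38.3, 37.8 and 43.2 CPM for PRPF39-201. The log2 ratio of means was −0.76 for the spliced form of PRPF39 and −0.24 for the intron-keeping form. RBM39-223 was at 131, 95.3 and 82.1 CPM and at 77.3, 80.2 and 66.1 CPM, without overlap, and RBM39-203 went from 188 ± 25.3 to 144 ± 7.28 CPM.

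**Figure D5:**
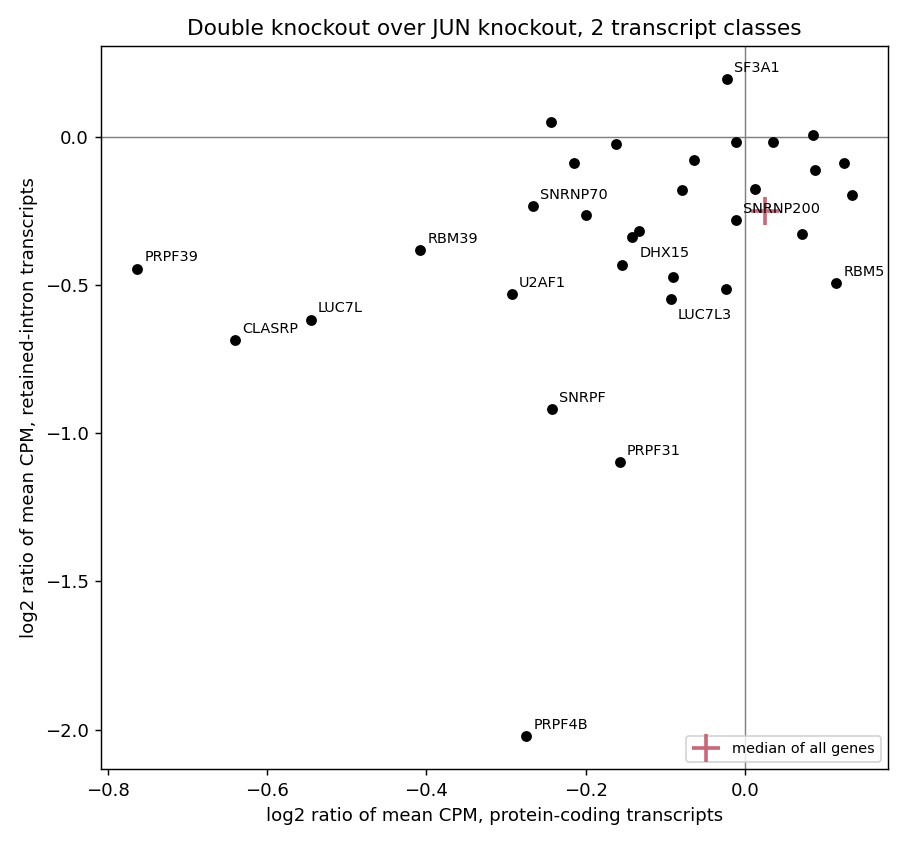
Log2 ratio of mean CPM, double knockout over JUN knockout, of protein-coding (x axis) and retained-intron (y axis) transcripts for the 32 genes with retained-intron transcripts over 1 CPM; the red cross is the median of all genes, at 0.026 and −0.25. PRPF39, CLASRP, LUC7L and RBM39 lie to the left and below 0 on both axes, RBM5 lies below 0 on the y axis alone, and PRPF4B and PRPF31, with few such reads, are the lowest.

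RefSeq promoters were matched for 41 of the 49 genes. The other 8 were PRPF39, SNRPD1, SF3B3, PRPF3, SART3, PRPF4B, RBM39 and CLASRP. Of the members that DESeq2 called lower, only LUC7L was therefore searched, and the shares below say nothing about PRPF3, PRPF39, CLASRP and RBM39. In the 41, motifs were searched on both strands of the 250 bases before the start site. The CRE motif TGACGTCA, which ATF and JUN dimers bind, was in 0 of 41, against 2.32% of 15843 promoters of protein-coding genes. With only 41 promoters, 0 matches do not set these genes apart from that share. The AP-1 motif TGANTCA was in 3 of 41 (DHX15, RBM25 and SF3A2), or 7.32%, against 5.04%. The ETS motif CCGGAAG was in 18 of 41, or 43.9%, against 11.8%, and the NRF1 motif (GCGC, any 1 base, then TGCGC) in 8 of 41, or 19.5%, against 7.65%. The CCAAT box was in 43.9% against 34.5% and the YY1 motif ATGGCGGC in 2.44% against 1.48%. None of these motifs holds another of them whole. In 87 promoters of other spliceosome genes the shares were 3.45% for CRE, 2.3% for AP-1, 39.1% for ETS and 14.9% for NRF1. A match is a run of letters, not a measured binding site, and no binding data were part of the series.

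A further 102 spliceosome genes, listed by function and not by their values, were set beside the 49. Earlier results of these data were known when the list was made, so its values describe it and do not test it. Of the 101 tested, 0 passed the edgeR threshold, where 0% of all genes did, and DESeq2 called 1 (DDX23), where it called 0.548% of all genes, and limma-voom 0. Of the 101, 81 had a log2 fold change below 0 and 20 above, where 49.3% of all tested genes were below 0. The median was −0.068, and 62 were below 0 without JUN knockout library 3, a fit whose share over all genes is not given here. In 16 of 101 every double knockout library lay below every JUN knockout library, where 5.91% of all genes did so. In 0 of 101 did all lie above, where 6.33% of all genes did. At an unadjusted p under 0.05 edgeR listed 5, all lower, where it listed 5.81% of all genes in either direction and 2.89% as lower. DDX23, a helicase of the U5 snRNP, was at 230.4, 245 and 245 CPM in the JUN knockout and at 185, 183 and 201 CPM in the double knockout (−0.34, SE 0.077). MAGOHB, of the exon junction complex, went from 38.6 ± 2.92 to 30.6 ± 1.88 CPM (−0.33, SE 0.097). The lowest p-values upward belonged to CRNKL1 (0.094, SE 0.092) and CDC40 (0.087, SE 0.094), both catalytic-stage factors, each with overlapping groups. By family, genes below 0 were 8 of 8 in the minor spliceosome, 6 of 6 in the B complex, 11 of 12 in U2, 10 of 11 among Sm and LSm, 8 of 9 in the tri-snRNP and 7 of 8 in the exon junction complex. They were 14 of 19 among Prp19 and related proteins, 9 of 14 in snRNP assembly, 5 of 8 in step II and disassembly, and 3 of 6 in U1 and the E complex.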

How the data were processed

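RNA-seq of 6 EoL-1 libraries was used (polyA RNA, a stranded Illumina mRNA kit, per the labels' protocols). Per the submitters' processing notes the authors used FastQC 0.11.9 and Salmon 1.6.0 with hg38. The transcript set was not given in the sources used here. The deposited files give an estimated count and a TPM value per transcript, per the file headers. Of 177456 transcripts, 167027 (94.1%) matched GENCODE 29 by identifier without version, and the rest (3.58% to 3.71% of estimated reads) were left out.

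Estimated counts were summed per gene, over all, protein-coding and other transcripts, and rounded. Each table was fitted whole with edgeR 4.0.16 (R 4.3.3): filterByExpr, TMM, robust quasi-likelihood F test, two-sided, group alone, Benjamini-Hochberg at 0.05. SE was taken as |log2 fold change|/√F. CPM uses TMM-scaled totals of the all-transcript table, and class values on that scale add up. The edgeR fit was also run on simulated data with 200 changed genes, but its recovery of differences as small as those described here is not given. DESeq2 1.42.0, limma 3.58.1 (voom), RLE scaling, 2 other filters, a length offset, a replicate block and leaving out each library were alternatives.

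Same-numbered libraries share a clone code in the file names, and this was taken as pairing them. The correlation of their deviations from group means was 0.328 for number 1, 0.0958 for number 2 and 0.412 for number 3. Double knockout 2 correlated at 0.112 with JUN knockout 1, so the values by themselves do not pair number 2. The genes and lists were chosen with earlier results of these data known. Genes with values in every library were, per role, the highest in TPM and the largest log2 fold change, those whose fits differed by 0.2 or more, and the 3 with the highest non-coding share, and others named were chosen after their values were seen.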

Additional observations from a re-analysis of the deposited data

How the results depend on the processing

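With the replicate number as a block, edgeR called 0 genes over all transcripts (1268 at an unadjusted p under 0.05), 0 over protein-coding transcripts and 1 over other transcripts, and the medians over the 49 genes were −0.146 and −0.153. DESeq2 called 71, 52 and 83 genes in these 3 tables and 1 of the other spliceosome genes. Limma-voom called 4 and 6 genes in the first and second, and leaving out the low-count filter gave 1 in the first. The cause of these differences between tools was not tested. With each library left out in turn, edgeR called 0 to 0 genes in all 3 tables and 0 to 0 of the other spliceosome genes. The same runs gave medians of −0.18 to −0.072 over all and −0.18 to −0.084 over protein-coding transcripts, non-coding shares of −1.99 to −0.948 points, ATF3 from −0.725 to −0.14 and JUN from −0.509 to −0.0186.

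Of 182 alternative values for 14 named genes, 172 kept direction and side of the threshold. The main fit called none of these genes, so their side could change only where an alternative called them. The edgeR runs with a library left out called no gene, so in those the direction alone could change. DESeq2 brought CLASRP, LUC7L, PRPF3, PRPF39 and RBM39 past it. EFTUD2 and SF3B3 changed sign in 5: EFTUD2 ranged from −0.018 to 0.127 and SF3B3 from −0.14 to 0.065 with a library left out, and SF3B3 was 0.023 with the length offset. With 3 libraries a group, log2 differences near 0.1 were of the size of their SE.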
